A study of Chlamydomonas reinhardtii with 9 samples.

Results

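Intraflagellar transport loci of the green alga Chlamydomonas reinhardtii were followed in cultures exposed for 2 h to methylmercury (MeHg), an organomercury compound with a high affinity for thiols. The rule named 10 loci by number, and all 10 were found among the 17737 gene identifiers of the count files: IFT52 (Cre04.g219250), IFT74 (Cre01.g027950), IFT81 (Cre17.g723600), IFT88 (Cre07.g335750), IFT57 (Cre10.g467000), IFT80 (Cre03.g204150), IFT172 (Cre17.g703900), IFT140 (Cre08.g362650), FLA10 (Cre17.g730950) and DHC1b (Cre06.g250300). The names are those of the rule. Neither the deposited files nor the RefSeq gene table used here, in which all 10 loci were found, pairs the loci with gene names, so the names could not be checked against an annotation.

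Every culture was of wild-type strain CPCC11, held in an artificial freshwater medium. The groups, with 3 biological replicates each, were a control without methylmercury, 0.05 nM methylmercury and 0.5 nM methylmercury, 9 libraries in all. RNA was sequenced from whole cultures, so a change in transcript per cell and a change in the share of cells that carry flagella cannot be told apart. The labels of the 0.05 nM libraries describe the source and the treatment in other words than those of the other libraries, and a separate submission of these libraries cannot be told apart from the dose.

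Intraflagellar transport is the traffic of protein trains along the microtubules of a flagellum, between the flagellar membrane and the axoneme. Kinesin carries the trains outward from the base to the tip, and cytoplasmic dynein carries them back. The trains are built of the IFT-A and IFT-B complexes, which bind cargo such as tubulin and other axonemal building blocks. In Chlamydomonas, mutants that lack certain IFT-B proteins or the outward motor cannot build or maintain flagella. Much of what is known of the process was worked out in this alga.

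Libraries held 15138888 to 20433375 gene-assigned reads, and the loci were well covered, with 1550 to 16157 reads per locus and library. Levels are given as CPM, the counts of a library scaled by its total of assigned reads after TMM correction for composition. CPM is not scaled by transcript length, which the sources used here do not give, so levels were compared between libraries for each locus and not between loci. Changes were tested in edgeR (quasi-likelihood F test, p-values adjusted by Benjamini-Hochberg over 14778 genes, threshold 0.05), and all 10 loci were among the genes tested. Replicate number 1 stood apart from the other numbers in all 3 groups for several of the loci, which is described below.

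Transcripts of the transport machinery were less abundant at both doses of methylmercury. At 0.5 nM against control all 10 loci fell and none rose; their log2 changes ran from -1.23 to -0.67 around a median of -1.16, or 0.447 of the control level. At 0.05 nM against control all 10 fell as well and none rose, with changes between -1.14 and -0.60 and a median of -0.96, or 0.513 of the control level. Of all genes tested, 28.7% fell and 31.6% rose at 0.5 nM, and 25% fell and 27.2% rose at 0.05 nM, with median log2 changes of 0.07 and 0.05. The libraries at either dose lay all below the controls for 9 of the 10 loci, against 29.7% of all genes at 0.5 nM and 28.3% at 0.05 nM. DHC1b was the exception.

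**Figure D1:**
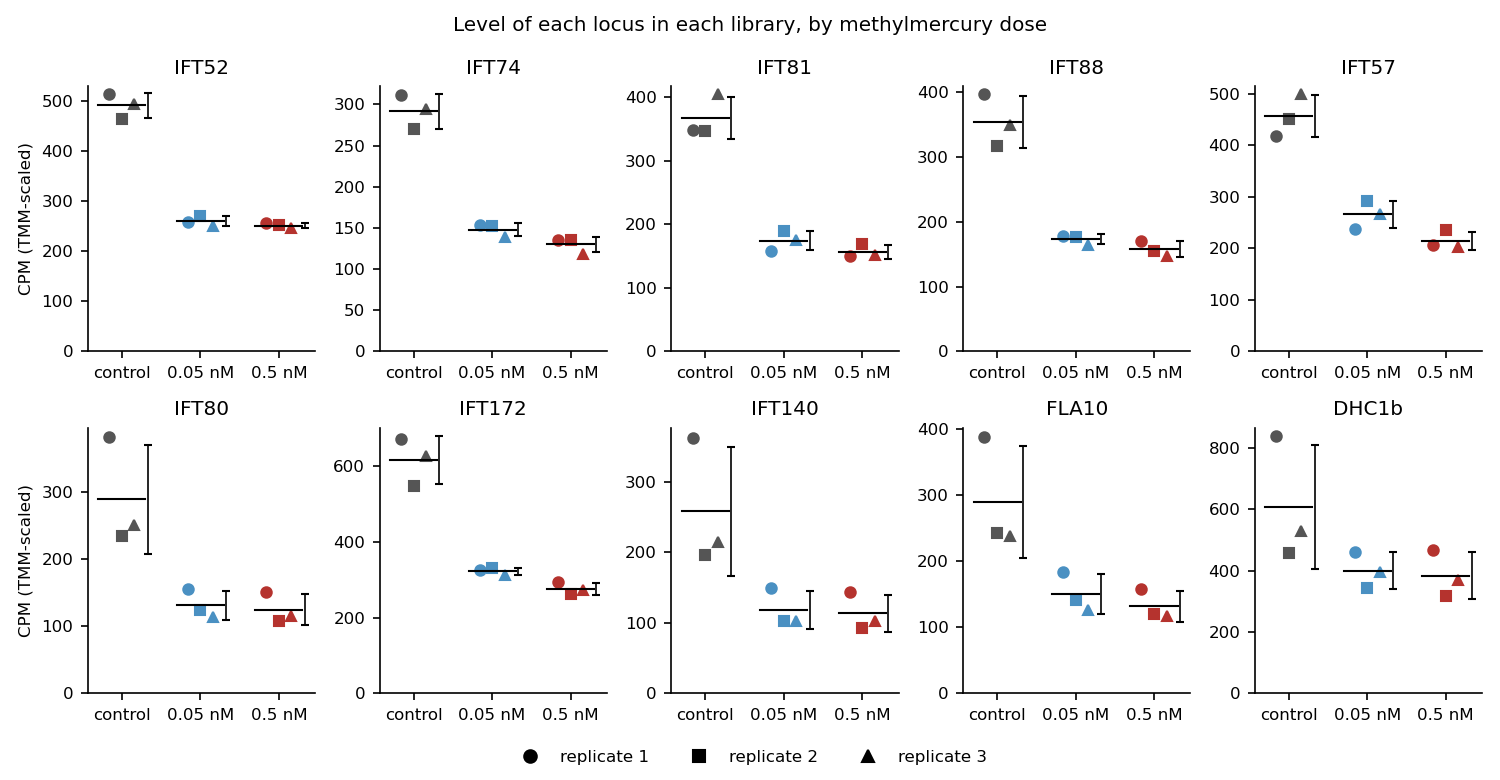
Level of each intraflagellar transport locus in each of the 9 libraries, in TMM-scaled CPM, at control, 0.05 nM and 0.5 nM methylmercury; points are libraries with the symbol giving the replicate number, horizontal lines are group means and bars to the right are the SD of 3 libraries. Both treated groups sit below the controls for 9 loci, and for DHC1b the replicate 1 libraries at 462 and 466 CPM reach above the lowest control at 457 CPM.

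IFT-B, the complex that binds cargo on the way out, is represented by 7 of the loci. Its core subunits are IFT52, IFT74, IFT81 and IFT88. IFT52 holds core subunits together, and a Chlamydomonas mutant without it has no flagella. IFT52 had 515, 465 and 494 CPM in the controls, 259, 269.8 and 251 CPM at 0.05 nM and 256, 252 and 246 CPM at 0.5 nM. The libraries of a group lay close together, and the lowest control was far above the highest treated library. The log2 change was -0.97 ± 0.09 (SE) at 0.5 nM (edgeR adjusted p = 5.74e-06) and -0.92 ± 0.09 at 0.05 nM (edgeR adjusted p = 1.43e-05), with 3 of 3 treated libraries below every control at each dose.

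IFT74 and IFT81 form a heterodimer within the core that binds tubulin. For IFT74 the controls had 311, 269 and 294 CPM, the 0.05 nM libraries 153, 152 and 138 CPM and the 0.5 nM libraries 135, 136 and 119 CPM. All libraries at 0.5 nM lay below all at 0.05 nM, which lay below all controls. Without the TMM correction the doses overlapped, with 0.5 nM replicate 1 at 152.9 CPM and 0.05 nM replicate 3 at 149.3 CPM. Its log2 change was -1.17 ± 0.10 at 0.5 nM (edgeR adjusted p = 2.84e-06) and -0.98 ± 0.10 at 0.05 nM (edgeR adjusted p = 1.51e-05). For IFT81 the levels were 348, 347 and 405 CPM in the controls, 158, 189 and 176 CPM at 0.05 nM and 149.9, 169 and 151 CPM at 0.5 nM. The doses overlapped with each other but not with the controls. IFT81 had the largest fall of the loci at 0.5 nM, with a log2 change of -1.23 ± 0.11 (edgeR adjusted p = 3.52e-06), and one of -1.07 ± 0.11 at 0.05 nM (edgeR adjusted p = 1.45e-05). This rank was not stable: without control replicate 2 IFT140 had the larger fall at 0.5 nM, -1.35 against -1.26 for IFT81.

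IFT88, whose loss prevents flagellar assembly in Chlamydomonas and whose mouse counterpart is a classic cilia gene, had 397, 318 and 349 CPM in the controls, 179, 176 and 165 CPM at 0.05 nM and 171, 155 and 147 CPM at 0.5 nM. No treated library came near the lowest control, and the doses overlapped. The log2 change was -1.17 ± 0.11 at 0.5 nM (edgeR adjusted p = 4.69e-06) and -1.03 ± 0.11 at 0.05 nM (edgeR adjusted p = 1.78e-05).

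IFT57, IFT80 and IFT172 belong to the peripheral part of IFT-B. IFT57 had 419, 452 and 499.9 CPM in the controls, 238, 292 and 267 CPM at 0.05 nM and 207, 235 and 203 CPM at 0.5 nM. In TMM-scaled CPM its 3 groups did not overlap, with 0.5 nM lowest. The difference between the doses did not pass (edgeR adjusted p = 0.257). Without the TMM correction the doses overlapped, with 0.5 nM replicate 2 at 262 CPM and 0.05 nM replicate 1 at 253 CPM. IFT57 fell by 1.09 ± 0.12 on the log2 scale at 0.5 nM (edgeR adjusted p = 1.2e-05) and by 0.78 ± 0.12 at 0.05 nM (edgeR adjusted p = 0.000194). IFT172, the largest IFT-B protein, which in Chlamydomonas takes part in the turnaround of trains at the tip, had 673, 547 and 628 CPM in the controls, 325, 331 and 312 CPM at 0.05 nM and 294, 262 and 273 CPM at 0.5 nM. The 3 groups of IFT172 did not overlap with or without the TMM correction, with 0.5 nM lowest. The difference between the doses did not pass here either (edgeR adjusted p = 0.408). The log2 change of IFT172 was -1.16 ± 0.11 at 0.5 nM (edgeR adjusted p = 4.81e-06) and -0.93 ± 0.11 at 0.05 nM (edgeR adjusted p = 3.36e-05).

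IFT80 had 381, 234 and 251 CPM in the controls, 155, 124 and 114 CPM at 0.05 nM and 151, 108 and 116 CPM at 0.5 nM. Its replicate 1 library was the highest of each group, and the treated libraries still lay below every control. The log2 change was -1.21 ± 0.20 at 0.5 nM (edgeR adjusted p = 0.000286) and -1.14 ± 0.20 at 0.05 nM (edgeR adjusted p = 0.000594), the largest fall of the 10 loci at 0.05 nM. This rank too was not stable: without control replicate 2 IFT140 had the larger fall at 0.05 nM, -1.29 against -1.28 for IFT80. Without control replicate 1 the change of IFT80 at 0.05 nM was -0.90, smaller than those of IFT81 (-1.12), IFT88 (-0.95) and IFT74 (-0.94).

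IFT140, a large subunit of IFT-A, the complex tied to the return journey and to the import of membrane proteins, had 363, 197 and 215 CPM in the controls, 149, 103 and 103 CPM at 0.05 nM and 144, 93.2 and 103 CPM at 0.5 nM. The controls spread most for this locus, with replicate 1 at 1.84 times replicate 2, and every treated library lay below the lowest control. The log2 change was -1.19 ± 0.25 at 0.5 nM (edgeR adjusted p = 0.00193) and -1.13 ± 0.25 at 0.05 nM (edgeR adjusted p = 0.00339). Without control replicate 1 it was -0.87 at 0.5 nM and -0.81 at 0.05 nM, and both passed.

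Both motors are represented by 1 locus each. FLA10, a motor subunit of the kinesin that drives trains to the tip and the site of a well-known temperature-sensitive flagellar mutation in Chlamydomonas, had 387, 242 and 237 CPM in the controls, 183, 141 and 126 CPM at 0.05 nM and 158, 119 and 117 CPM at 0.5 nM. All treated libraries lay below all controls. The log2 change of FLA10 was -1.14 ± 0.21 at 0.5 nM (edgeR adjusted p = 0.000652) and -0.94 ± 0.21 at 0.05 nM (edgeR adjusted p = 0.00275). Without control replicate 1 it was -0.87 at 0.5 nM and -0.68 at 0.05 nM, and both passed.

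DHC1b, the heavy chain of the cytoplasmic dynein that returns trains to the cell body, had the smallest log2 change of the 10 at each dose. Without 0.05 nM replicate 1, IFT57 had the smaller change at 0.05 nM, -0.71 against -0.72 for DHC1b. DHC1b had 838, 457 and 531 CPM in the controls, 462, 345 and 394 CPM at 0.05 nM and 466, 316 and 369 CPM at 0.5 nM. In each group replicate 1 was the highest library, and at each dose it lay above control replicate 2, so the groups overlapped. The log2 change was -0.67 ± 0.22 at 0.5 nM (edgeR adjusted p = 0.0208) and -0.60 ± 0.22 at 0.05 nM (edgeR adjusted p = 0.0373). Within replicate numbers 1, 2 and 3 the log2 difference was -0.85, -0.53 and -0.53 at 0.5 nM and -0.86, -0.41 and -0.43 at 0.05 nM, so that the treated library was lower in every number. Without control replicate 1 the DHC1b log2 change was -0.37 at 0.5 nM (edgeR adjusted p = 0.068) and -0.31 at 0.05 nM (edgeR adjusted p = 0.13), and neither passed. The call was also lost without 0.5 nM replicate 2 (edgeR adjusted p = 0.0801) or 0.5 nM replicate 3 (edgeR adjusted p = 0.0638) at 0.5 nM. At 0.05 nM it was lost without 0.05 nM replicate 2 (edgeR adjusted p = 0.124), 0.05 nM replicate 3 (edgeR adjusted p = 0.0945) or 0.5 nM replicate 3 (edgeR adjusted p = 0.0538). With replicate numbers 2 and 3 only, or with the number as a block, it was kept at both doses. With libraries scaled by their totals alone it was -0.39 (edgeR adjusted p = 0.215) and -0.36 (edgeR adjusted p = 0.265), and the other 9 loci still fell at both doses.

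**Figure D2:**
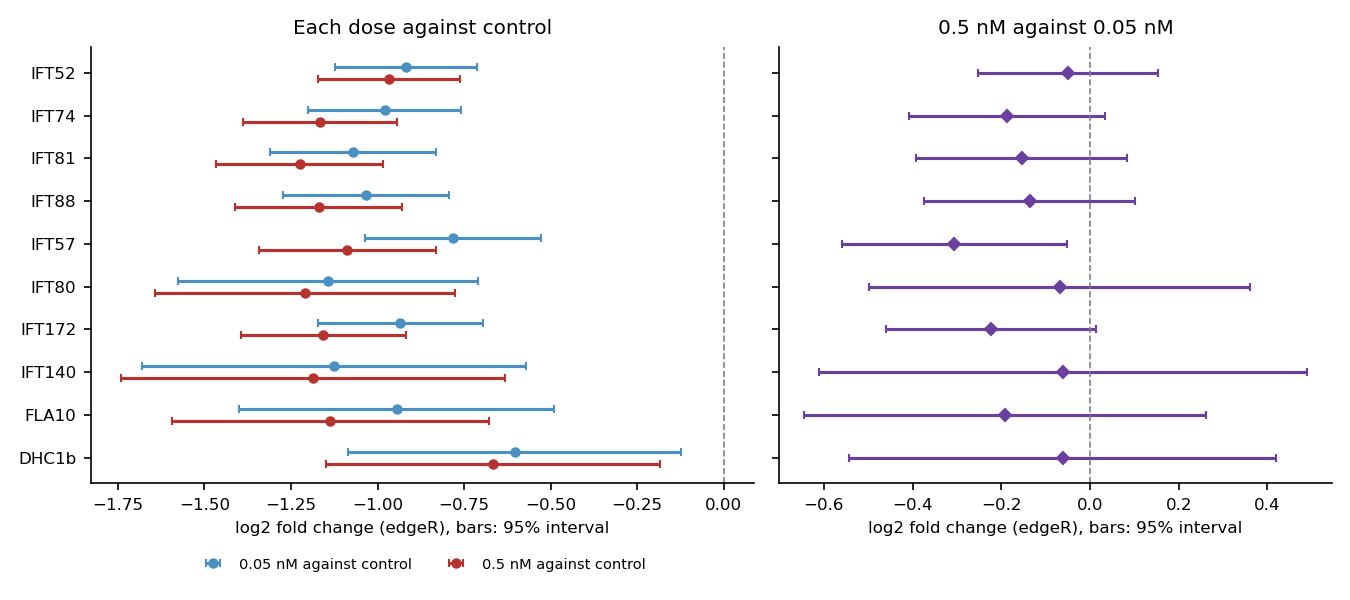
Log2 fold change of each locus with its 95% interval from edgeR's quasi-likelihood fit; left, 0.05 nM (blue) and 0.5 nM (red) against control, and right, 0.5 nM against 0.05 nM. All intervals on the left lie below 0, with DHC1b nearest to it, and on the right 9 of 10 intervals include 0.

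DHC1b was set against the other loci after its values were seen. Its log2 CPM minus the mean of the other 9 loci is a ratio within a library that depends on transcript lengths, so only its shift between groups was read. The shift was 0.50 at 0.5 nM, with 1.21 ± 0.202 at 0.5 nM and 0.71 ± 0.282 in the controls (SD, n = 3 each). At 0.05 nM it was 0.42, with 1.13 ± 0.191 at 0.05 nM and 0.71 ± 0.282 in the controls (SD, n = 3 each). The groups overlapped. Within replicate numbers 1, 2 and 3 the shift was 0.36, 0.49 and 0.66 at 0.5 nM and 0.23, 0.41 and 0.61 at 0.05 nM, positive in 3 of 3 numbers at each dose. An exact permutation of 3 libraries against 3 gave an unadjusted p = 0.2 for this shift at 0.5 nM and at 0.05 nM. Such a permutation cannot go below p = 0.1, so it cannot decide whether DHC1b fell less than the other loci.

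Set against the whole transcriptome, the loci lay in the lower tail of changes but not at its end. At 0.5 nM the changes of the 9 loci other than DHC1b stood at percentile 6.91 (IFT81) to 10.99 (IFT52) of all tested genes, counted from the strongest fall, and DHC1b at percentile 18.4. At 0.05 nM they stood at percentile 4.82 (IFT80) to 11.6 (IFT57), with DHC1b at 16.3. Together the 10 loci held 0.309% to 0.438% of assigned reads in the controls, 0.217% to 0.24% at 0.05 nM and 0.183% to 0.242% at 0.5 nM. Scaling by library totals alone shifted the change of the median gene by 0.29 at 0.5 nM and 0.26 at 0.05 nM on the log2 scale, and gave 17.3% of genes lower and 45.4% higher at 0.5 nM and 14.1% lower and 39.9% higher at 0.05 nM. On that scale the median change of the 10 loci was -0.87 at 0.5 nM and -0.71 at 0.05 nM, with every locus negative.

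**Figure D3:**
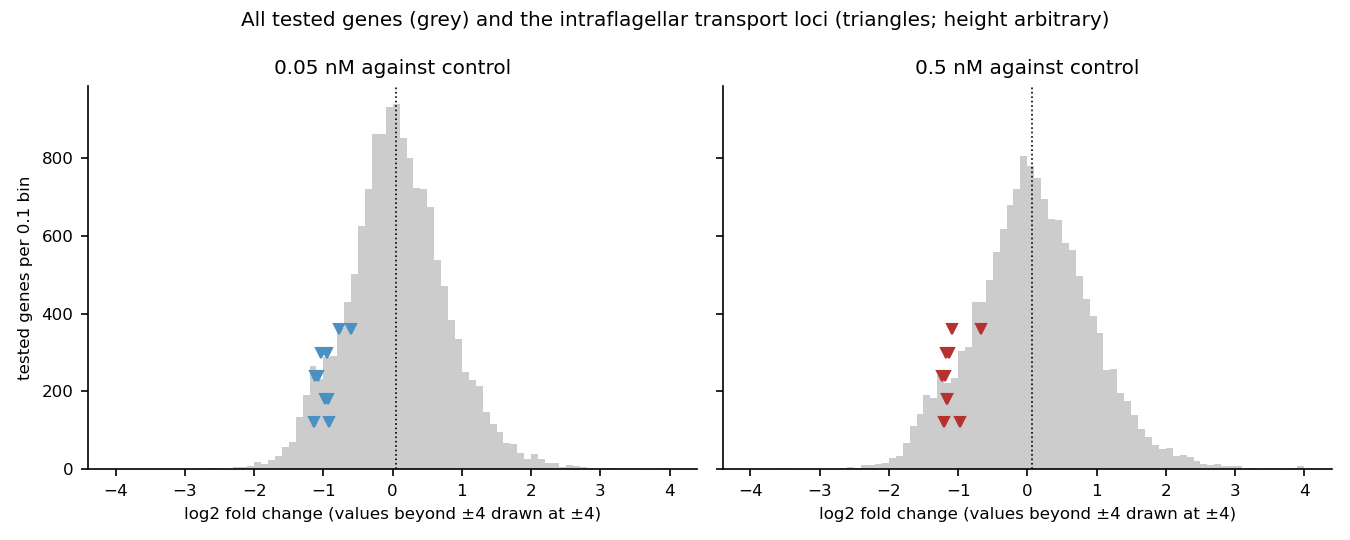
Histogram of the log2 fold changes of 14778 tested genes (grey, bins of 0.1; values beyond the axis are drawn at its ends) at 0.05 nM (left) and 0.5 nM (right) against control, with triangles at the changes of the 10 loci, whose height carries no meaning, and a dotted line at the median gene. The triangles sit together at the left shoulder, between -1.14 and -0.60 at 0.05 nM and between -1.23 and -0.67 at 0.5 nM.

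Between the doses the loci differed little. At 0.5 nM against 0.05 nM all 10 had a negative log2 difference, of -0.31 to -0.05 with a median of -0.15, where the median over all tested genes was 0.01. Of the loci 0 passed edgeR's test, where 0.819% of all genes tested were lower and 0.0135% higher. At an unadjusted p under 0.05 there was 1 locus, IFT57, against 13.5% of all genes, and 0 loci passed with DESeq2. In TMM-scaled CPM the 0.5 nM libraries lay all below the 0.05 nM libraries for 3 loci, IFT57, IFT74 and IFT172, against 12.1% of all genes. Without the TMM correction the doses overlapped for IFT57 and IFT74, and the share of all genes on that scale was not counted. Both doses were compared with the same controls, so the more negative change of each locus at 0.5 nM only restates these differences.

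IFT57 showed the largest difference, with 214.9 ± 17.6 CPM at 0.5 nM and 266 ± 26.9 CPM at 0.05 nM (SD, n = 3 each). Its log2 difference was -0.31 (95% interval -0.56 to -0.05, edgeR adjusted p = 0.257). Without 0.5 nM replicate 1, FLA10 had the larger difference, -0.346 against -0.281 for IFT57. With the replicate number as a block, IFT57 was the 1 locus that passed, with a log2 difference of -0.30 (edgeR adjusted p = 0.041). In that fit 7.04% of all genes were lower and 1.94% higher, so 1 locus of 10 is close to the share of all genes. Its within-number differences were -0.20, -0.31 and -0.40 for replicate numbers 1, 2 and 3. For IFT172 the log2 difference was -0.22 (95% interval -0.46 to 0.01) and for IFT74 -0.19 (95% interval -0.41 to 0.03). IFT52 had the narrowest interval, -0.25 to 0.15. The widest was that of IFT140, -0.61 to 0.49, and the intervals of IFT80, FLA10 and DHC1b were -0.50 to 0.36, -0.64 to 0.26 and -0.54 to 0.42.

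The place of replicate number 1 within its group differed between the loci. Its library was the highest of its group in all 3 groups for IFT88, IFT80, IFT140, FLA10 and DHC1b, 5 of the 10 loci, against 19.2% of all tested genes. For IFT140 it stood at 1.26 to 1.40 times the group mean, for DHC1b at 1.15 to 1.38 times, for FLA10 at 1.20 to 1.34 times and for IFT80 at 1.18 to 1.32 times. For IFT81 and IFT57 it stood below the group mean in every group, at 0.908 to 0.956 and 0.897 to 0.963 times. The other loci lay between these: IFT88 at 1.03 to 1.12 times, IFT172 at 1.01 to 1.09, IFT74 at 1.03 to 1.07 and IFT52 at 0.997 to 1.05. What sets replicate number 1 apart was not tested. With replicate numbers 2 and 3 only, all 10 loci fell at both doses, with medians of -1.12 at 0.5 nM and -0.92 at 0.05 nM.

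**Figure D4:**
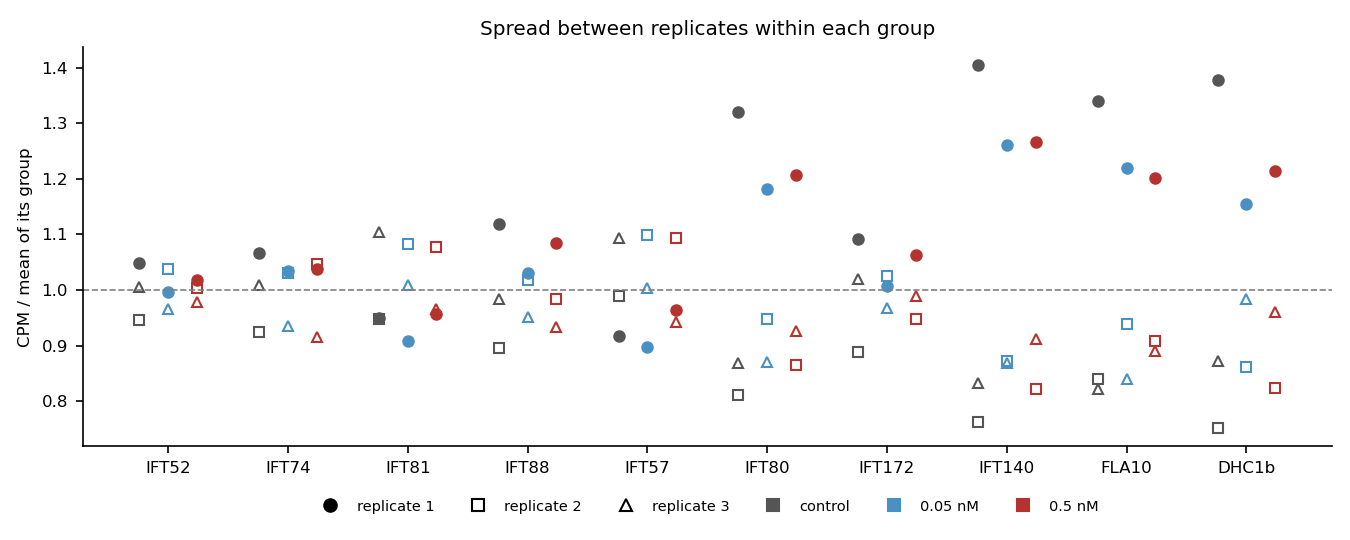
CPM of each library divided by the mean of its group, for each locus, with symbols for the replicate number (filled for replicate 1) and colours for control, 0.05 nM and 0.5 nM. Replicate 1 lies between 1.15 and 1.40 in every group for IFT80, IFT140, FLA10 and DHC1b and below 1 in every group for IFT81 and IFT57.

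The authors' deposited table gave lower levels for all 10 loci at both doses. Its fold ratios, treated against control and negative for a fall, ran from -2.34 (IFT81) to -1.59 (DHC1b) at 0.5 nM in the authors' deposited table. At 0.05 nM the authors' deposited table gave -2.21 (IFT80) to -1.52 (DHC1b). The largest FDR-corrected p-value in the authors' deposited table was that of DHC1b, 0.00245 at 0.5 nM and 0.00768 at 0.05 nM. Its headers do not write the doses as 0.05 nM and 0.5 nM. The lower dose they name was read here as 0.05 nM and the higher as 0.5 nM.

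Other genes of flagellar transport were looked at through a list of 14 locus numbers recalled as those of further IFT-A and IFT-B subunits, of Bardet-Biedl proteins, which form a membrane cargo adapter of the trains, and of the other motor subunit of the kinesin. No table used here could check these numbers, so they are given as counts. Of the 10 that were present and tested, 9 fell and none rose at 0.5 nM, with a median log2 change of -0.9996 and a range of -1.20 to -0.68, where 28.7% of all genes fell. At 0.05 nM 9 fell and none rose, with a median of -0.94 and a range of -1.11 to -0.85, where 25% of all genes fell. Between the doses 0 of the 10 passed, with a median of -0.03. A list of 4 recalled numbers for alpha and beta tubulin, the main cargo of the trains, had 3 tested loci. All 3 fell, with log2 changes of -1.65 to -1.42 at 0.5 nM and of -1.25 to -1.12 at 0.05 nM, beside the same shares of all genes. Tubulin genes have near-identical copies, and reads that match more than one place were not assigned. How the tubulin falls differ from those of the transport loci was not tested.

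Across the 9 libraries, the tested genes outside the rule whose pattern was nearest to the mean of the loci were Cre01.g014450 and Cre12.g488750. Their centred log2 CPM differed from that mean by a root mean square of 0.0401 and 0.0448. Cre01.g014450 had a log2 change of -1.05 at 0.5 nM and -0.93 at 0.05 nM, and Cre12.g488750 had -1.04 and -0.91. Both genes were picked by their levels in these same libraries. Their falls therefore follow from the choice and are not separate evidence. Of the loci themselves, IFT88 lay nearest to their mean, at 0.0529, with 2 genes outside the rule closer than it, and DHC1b farthest, at 0.259, with 1680 genes closer. Each locus is part of the mean it is measured against, which shortens its distance, and the genes outside the rule are not.

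The loci lie on 8 chromosomes by their locus numbers, and no 2 are direct neighbours. In the RefSeq table, which may follow another gene build than the counts, none of the 10 overlaps another gene. Of their 20 direct neighbours, 15 were tested. At 0.5 nM 9 of the 15 fell and 1 rose, with a median log2 change of -0.60, and at 0.05 nM 9 fell and 0 rose, with a median of -0.57. These shares stand beside the 28.7% and 25% of all genes that fell. Whether neighbours share reads, or a response, with the loci was not tested.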

How the data were processed

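RNA was measured in 9 cultures, with groups and replicate numbers taken from the sample titles. Per the labels, RNA was extracted with TRI Reagent and libraries came from the TruSeq Stranded mRNA kit. The authors deposited raw counts for each gene and library, aligned with TopHat2 and counted with HTSeq per the submitters' processing notes. The sources used here do not give their versions, the genome build, the annotation or the strand setting. Reads outside gene models (1.02% to 1.24%) and ambiguous reads (0.264% to 0.331% of assigned, outside and ambiguous reads together) stayed out of library sizes and tests. Reads aligned at several places were left unassigned. The counter of non-unique alignments, which may count a read more than once, stood at 24.2% to 43.7% of assigned reads in control libraries, highest in control replicate 3. At 0.05 nM this counter stood at 19.0% to 21.6% and at 0.5 nM at 20.8% to 23.0%, all below the lowest control. TMM factors separated too, with 0.824 to 0.946 for controls, 1.02 to 1.08 at 0.05 nM and 0.991 to 1.13 at 0.5 nM. How the differing count of non-unique alignments bears on the changes against control was not tested. The authors' deposited table also holds signed fold ratios (a score here, negative for a fall), p-values and FDR-corrected p-values of their own test, per the file headers, quoted as theirs.

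In R 4.3.3 with edgeR 4.0.16, genes were kept by filterByExpr, scaled by TMM and fitted with a robust quasi-likelihood model on group over all 9 libraries (6 residual degrees of freedom), with two-sided tests adjusted over 14778 genes. Standard errors were worked out from log2 change and F, and 95% intervals from its degrees of freedom. On simulated counts for 0.5 nM against control with 14778 genes, 26% of genes with a log2 change of 0.5 and 93.7% of those with 1 were recovered, and 6.02% of calls were false. The simulation changed only a small share of genes, all well covered, and held no effect of replicate number. In the data 28.7% of genes fell and 31.6% rose at 0.5 nM, so these rates do not carry over to the data. Same-numbered libraries deviated together from their group means (correlation across genes 0.104 to 0.630 over 9 pairs, all above 0.1). The main fit was on group alone and did not use this pairing. It was used only in the within-number differences and in the replicate block, an alternative fit. Where the pairing comes from is not stated. The pairing is weakest for number 3: differently numbered libraries correlated at -0.491 to 0.371, and control replicate 3 correlated more with replicate 2 (0.371 at 0.05 nM and 0.337 at 0.5 nM) than with replicate 3 of the treated groups (0.210 and 0.104). Alternatives were library totals, DESeq2 1.42.0, no filter, the block, numbers 2 and 3 only and each library left out.

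The loci, lists and tests were chosen with earlier results of these data known. All 10 loci are named. Of other genes, the 2 nearest by root mean square of centred log2 CPM (prior count 2) are given. The loci of the recalled lists are not printed, since no table pairs them with names. No sequences or transcript lengths were used here.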

Additional observations from a re-analysis of the deposited data

How the results depend on the processing

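At each dose against control, all 10 loci kept a negative change under all 14 alternatives, and 9 or 10 passed; the locus lost was DHC1b in each case. Its log2 change ran from -0.84 to -0.37 at 0.5 nM and from -0.78 to -0.31 at 0.05 nM over the alternatives, with edgeR or DESeq2 adjusted p of 2.75e-05 to 0.215 and 0.000118 to 0.265. DHC1b passed with replicate numbers 2 and 3 only, with DESeq2 and with the replicate block (edgeR adjusted p = 2.75e-05 at 0.5 nM and 0.000118 at 0.05 nM). Library totals alone moved the median of the loci to -0.87 at 0.5 nM and -0.71 at 0.05 nM, since that scaling shifts all genes; it cost DHC1b its call at both doses.

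Between the doses the count of all genes, 123, was not stable. It was 0 with library totals, 559 with DESeq2, 1328 with the replicate block (287 higher and 1041 lower), 1 with replicate numbers 2 and 3 only, and 0 to 383 with 1 library left out: 383 without control replicate 1, 200 without 0.5 nM replicate 2 and 0 without any of the other 7, with 1254 to 2020 genes at an unadjusted p below 0.05. The count of loci was 0 throughout except for 1, IFT57, with the block, where 7.04% of all genes were lower and 1.94% higher. Uncalled differences of 3 loci turned positive without 0.05 nM replicate 1 and without 0.5 nM replicate 2. With 1 library left out, IFT80 ran from -0.228 to 0.0692, IFT140 from -0.27 to 0.14 and DHC1b from -0.227 to 0.0592. The replicate block changed no other call of a locus. The causes were not tested.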
